A study of Mus musculus with 12 samples.

Results

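The genes examined are those of the proteasome, the protease that degrades ubiquitin-tagged proteins. They were compared in resting CD8 T cells of mice given donor marrow with or without the scurfy mutation of the transcription factor Foxp3. Members were taken by name: every gene of the table whose symbol begins with Psm, a letter from a to g and a number, leaving out pseudogene names, which gave 48 of 11581 genes. They comprise 7 genes of the alpha ring, 7 of the constitutive beta ring, 3 immunoproteasome subunits, 6 ATPases and 11 other subunits of the cap, 6 activators and inhibitors and 7 assembly chaperones. The remaining gene, Psmc3ip, encodes a partner protein of Psmc3 known from meiotic recombination and is no proteasome subunit. The rule used names and no measured value, but it was set with earlier results of these data known.

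Messenger RNA was sequenced from purified CD8 T cells of C57BL/6 J chimeric mice, 2 months after reconstitution with mixed bone marrow. In the scurfy group 1 donor marrow was OT-1 Foxp3Scurfy CD45.1+/2+, and in the wild-type group it was OT-1 Foxp3wt CD45.1+/2+; in both it was mixed with CD45.2+ marrow, and all OT-1 cells carry a transgenic receptor for the SIINFEKL peptide of ovalbumin. The comparison used the 3 scurfy and 3 wild-type libraries of unstimulated cells. The pair of deposited tables is identical and names these 6 libraries alone, so the libraries given peptide for 6 h were not analysed here. The labels state neither whether CD8 T cells were separated by their CD45 alleles nor how many mice gave a library, so the p-values rest on a spread between samples that may be technical. The scurfy mutation is present from the stem cell onward in the donor marrow, not induced in mature cells.

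Reads per library over the table ran from 8852518 to 23149523. The CD8 T cell markers Cd8a and Cd8b1 were abundant in all 6 libraries (Cd8b1 from 21344 to 21911 normalized counts). The 6 genes of that marker list summed to 51654 to 59574 in scurfy and 46549 to 47270 in wild-type libraries. Of them Cd3d, a chain of the T cell receptor complex, rose by 0.76 on the log2 scale (limma adjusted p = 0.00551). Cd3g (0.46, limma adjusted p = 0.0648) and Trac (0.16, 0.376) were higher in every scurfy library without passing. With Cd3d, 3 of the 6 markers were higher in every scurfy library, against 13.4% of all genes. No marker of CD4 T cells or natural killer cells on the lists had a row. Foxp3 itself was not analysed here and gave no check of the genotype labels. The summed level of 2 of 8 listed myeloid markers, Cst3 and Cd68, was 1463 to 1579 normalized counts in scurfy and 850 to 1172 in wild-type libraries; the defining genes Lyz2, Csf1r and Itgam had no row. The 7 of 10 B cell markers with a row, mostly Ighm, summed to 9895 to 11352 in scurfy and 10971 to 11753 in wild type. Ms4a1 and Cd79a had no row. The class II gene H2-Aa fell by 3.97 on the log2 scale (limma adjusted p = 0.0164, but 0.0661 without wild-type library 2 and 0.0706 without wild-type library 3). It rested on few reads, at 15.7, 0.0 and 4.73 normalized counts in scurfy and 57.2, 84.1 and 73.9 in wild-type libraries. The size of its fall is uncertain: -2.56 with a pseudocount of 8, -4.35 with 0.5, -3.39 in edgeR and -3.40 in DESeq2. The class II genes H2-Ab1, H2-Eb1 and Cd74 were also lower in every scurfy library, at -3.48, -2.34 and -0.99, and did not pass (adjusted p = 0.0638, 0.0844 and 0.202). H2-Ab1 was at 4.84, 0.0 and 0.0 normalized counts in the scurfy libraries. The other B cell markers, Ighm (-0.08), Ighd (-0.17) and Cd79b (-0.25), overlapped between groups. Of the 7 markers, 4 were thus lower in every scurfy library, against 13.7% of all genes. Cst3 rose by 0.59 (adjusted p = 0.0202), a call that ended without scurfy library 2 (0.0562), scurfy library 3 (0.0514) or wild-type library 2 (0.0815). The Cst3 call also ended with a trend by gene length removed (0.40, limma adjusted p = 0.101) and on library size alone (0.45, 0.0529). Cd68 was at 0.74 and did not pass (limma adjusted p = 0.21). The erythroid gene Car2, 1 of 4 on its list with a row, was at 101 to 156 in scurfy and 232 to 315 in wild-type libraries and fell by 1.12 (adjusted p = 0.0139, and 0.0645 without wild-type library 3). The part of other cells in the results that follow was not tested, and in bulk RNA fewer cells of a type cannot be told apart from less RNA per cell.

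The proteasome is built from a barrel-shaped core and regulators that dock on its ends. The outer alpha rings of the core gate the entrance, and the inner beta rings hold the cutting sites. The cap unfolds tagged proteins with a ring of ATPases and feeds them into the core, whereas the PA28 and PA200 activators open the gate without ATP. In lymphocytes and under interferon the catalytic beta subunits are exchanged for Psmb8, Psmb9 and Psmb10, which form the immunoproteasome and favour peptides that fit MHC class I.

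Of the 48 genes, 3 rose and 1 fell in scurfy libraries, and 44 did not pass the threshold. Psmb7, a catalytic subunit of the constitutive core, rose 2.23-fold. Psma2 of the alpha ring rose 1.55-fold and Psme1, the alpha chain of the PA28 activator, 1.33-fold, whereas Psme4, the PA200 activator, fell by 0.72 on the log2 scale. The share called, 8.33%, stands beside 4.47% of all 11581 genes (2.12% higher and 2.35% lower). A call is an adjusted p under 0.05 in limma on log2(normalized count + 1), and a normalized count is a read count divided by the authors' size factor for the library. The difference between these shares was not tested. Of all genes, 21.2% had an unadjusted p under 0.05, against 15 of the 48 (31.2%). The other tools, run on recovered reads, called 4.84% of all genes (edgeR), 7.69% (DESeq2) and 4.65% (voom), the background for their counts in what follows.

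Most log2 fold changes were small and positive, those of the 4 called genes included in the counts that follow. Log2 fold changes were above 0 for 36 of 48 genes (75.0%, against 51.1% of all genes), with a median of 0.14 against 0.01. For 17 of 48 genes the scurfy and wild-type values did not overlap (35.4%, against 27.1% of all genes): 15 were higher in every scurfy library (13.4% of all genes) and 2 were lower (13.7% of all genes). Among the 44 genes that did not pass, 13 had no overlap (29.5%), a share near that of all genes, and 33 were above 0. The median deviation of the members from their own mean on the log2 scale was 0.07, 0.12 and 0.08 for the scurfy libraries, in order of replicate number, and -0.01, -0.03 and -0.13 for the wild-type ones. All 3 scurfy medians thus lay above all 3 wild-type medians. The same medians over all genes were 0.01 or 0.02 in each library. Scaling by size factors brings the all-gene medians close together, so their flatness is no contrast to the members. With values scaled by library size in place of the authors' factors, the median log2 fold change was -0.13 over all genes and 0.01 over the members. In total the 48 genes took 0.638% to 0.666% of the normalized counts in scurfy and 0.625% to 0.636% in wild-type libraries.

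**Figure D1:**
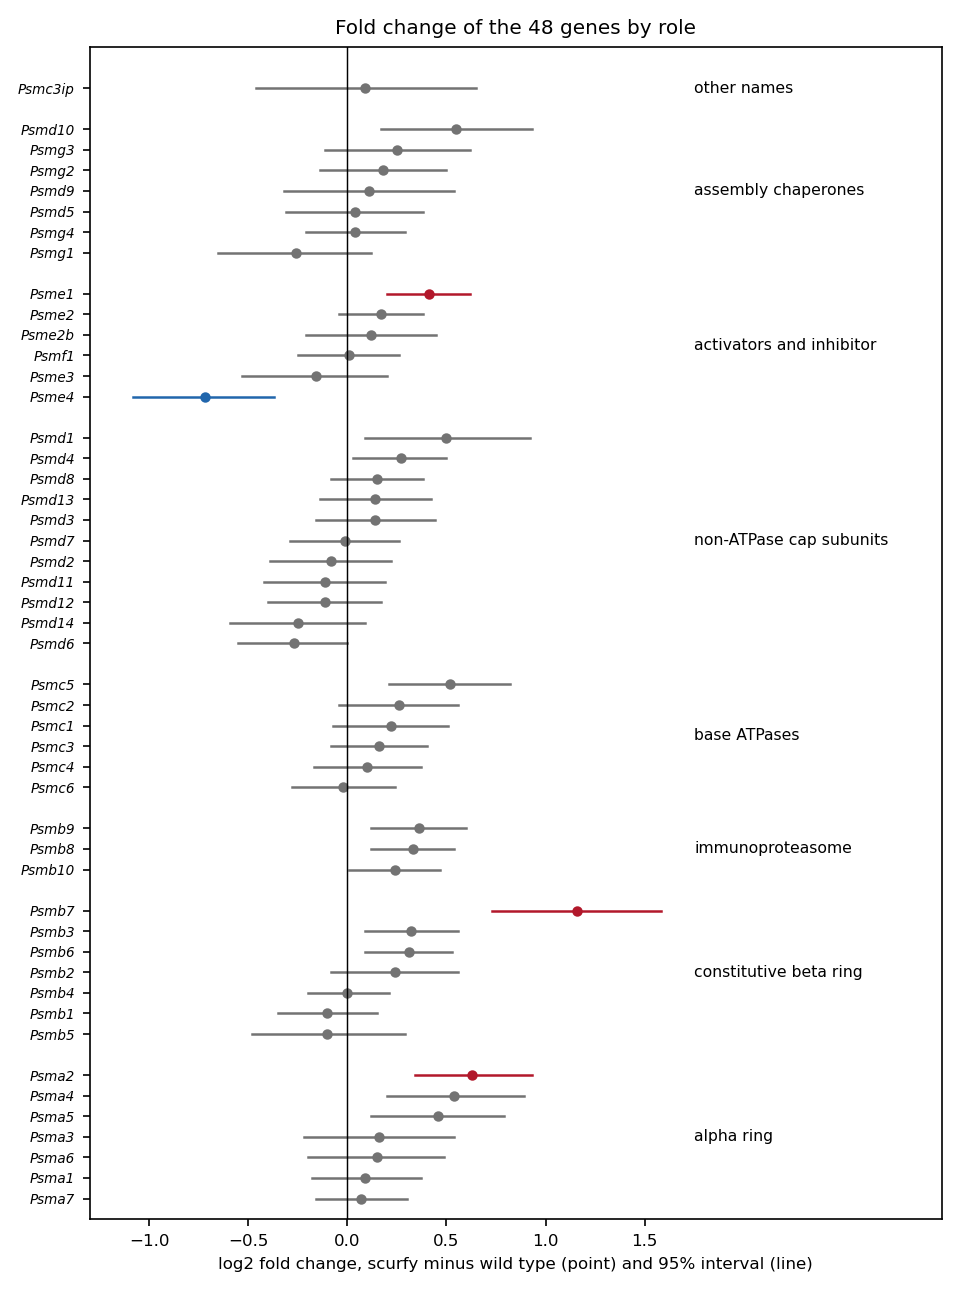
Log2 fold change (scurfy minus wild type, point) with its 95% interval (line) for each of the 48 genes, grouped by role; red genes were called higher, blue lower, grey not called. Psmb7 stands furthest to the right at 1.16 and Psme4 furthest to the left at -0.72, and the intervals of the grey genes all lie within 1 log2 unit of 0.

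Promoter windows of 3 of the genes that changed are shown because proteasome genes are known to share regulators: NFE2L1 at antioxidant response elements for the whole particle, NF-Y at CCAAT boxes, and interferon regulatory factors for the immune subunits. Psmb7, the other called gene, had no window in the sequences used here. The windows run from 250 bases before to 50 bases after the start in RefSeq on GRCm38.p6. They lie at chr13:14612992-14613291 (plus strand) for Psma2, chr14:55578244-55578543 (plus strand) for Psme1 and chr11:30771525-30771824 (plus strand) for Psme4. Capitals mark the motif letters found on either strand.
Psma2: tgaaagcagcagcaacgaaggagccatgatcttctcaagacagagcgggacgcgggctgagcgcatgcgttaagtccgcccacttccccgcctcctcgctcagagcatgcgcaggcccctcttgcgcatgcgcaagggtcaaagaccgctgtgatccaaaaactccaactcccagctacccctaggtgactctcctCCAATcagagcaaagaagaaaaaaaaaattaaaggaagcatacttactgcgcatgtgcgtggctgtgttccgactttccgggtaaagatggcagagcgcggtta
Psme1: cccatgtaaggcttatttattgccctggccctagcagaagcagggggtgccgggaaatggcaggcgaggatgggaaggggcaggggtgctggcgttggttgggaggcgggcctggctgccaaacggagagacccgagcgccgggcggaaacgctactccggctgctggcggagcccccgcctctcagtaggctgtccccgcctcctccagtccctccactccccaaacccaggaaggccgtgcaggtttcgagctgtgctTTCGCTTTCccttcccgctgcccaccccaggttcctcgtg
Psme4: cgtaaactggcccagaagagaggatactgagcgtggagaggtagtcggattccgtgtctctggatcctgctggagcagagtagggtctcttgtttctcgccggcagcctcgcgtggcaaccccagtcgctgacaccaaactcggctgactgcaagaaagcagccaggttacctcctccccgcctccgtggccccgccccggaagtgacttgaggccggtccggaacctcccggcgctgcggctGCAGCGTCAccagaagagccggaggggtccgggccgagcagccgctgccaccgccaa

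The capitals are a CCAAT box at position -54 in Psma2, with the start as 0, an interferon regulatory factor pair (GAAANNGAA, read on the other strand) at position 10 in Psme1, and an antioxidant response element core (TGACNNNGC, also on the other strand) at position -7 in Psme4. Each of the 3 windows held 1 of these 3 motifs. Over 41 of the 48 genes matched by symbol, 6 (14.6%) held TGACNNNGC, against 14.0% of 27025 genes with a window. CCAAT was in 14 (34.1%, against 41.1%) and GAAANNGAA in 7 (17.1%, against 9.76%). Those 7 were Psmb3, Psmb4, Psmc2, Psmd4, Psmd9, Psme1 and Psmg4, with no immunoproteasome gene among them. A gamma-activated site (TTCNNNGAA) was also searched and was in 3 (7.32%, against 9.55%), the immunoproteasome gene Psmb8, Psmd2 and Psmg1. These are matches of letters and not shown to be sites.

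In the alpha ring, which gates the core, 1 of 7 genes rose and 6 did not pass. Psma2 was at 1957, 2241 and 2345 normalized counts in the scurfy libraries and 1357, 1744 and 1164 in the wild-type libraries, again by replicate number. Every scurfy library lay above every wild-type one, wild-type library 3 being the lowest. The means were 2181 ± 201 and 1422 ± 295 (SD, n = 3 each), and the log2 fold change was 0.63 (SE 0.14, limma adjusted p = 0.0225). The call ended without scurfy library 2 (adjusted p = 0.0729), scurfy library 3 (0.0598), wild-type library 1 (0.0688) or wild-type library 3 (0.0841).

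Psma4 and Psma5, the alpha genes next in order of p, also had groups that did not overlap. Psma4 was at 450.4, 478.4 and 549.7 in scurfy and 393.5, 342.7 and 284.5 in wild-type libraries (log2 fold change 0.54, limma adjusted p = 0.0697), and Psma5 was at 0.46 (0.109). The other 4 alpha genes overlapped between groups, with log2 fold changes from 0.07 for Psma7 to 0.16 for Psma3. Wild-type library 3 held the lowest value of Psma1, Psma2, Psma3, Psma4 and Psma6 among the 6 libraries. The median log2 fold change of the ring was 0.16.

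**Figure D2:**
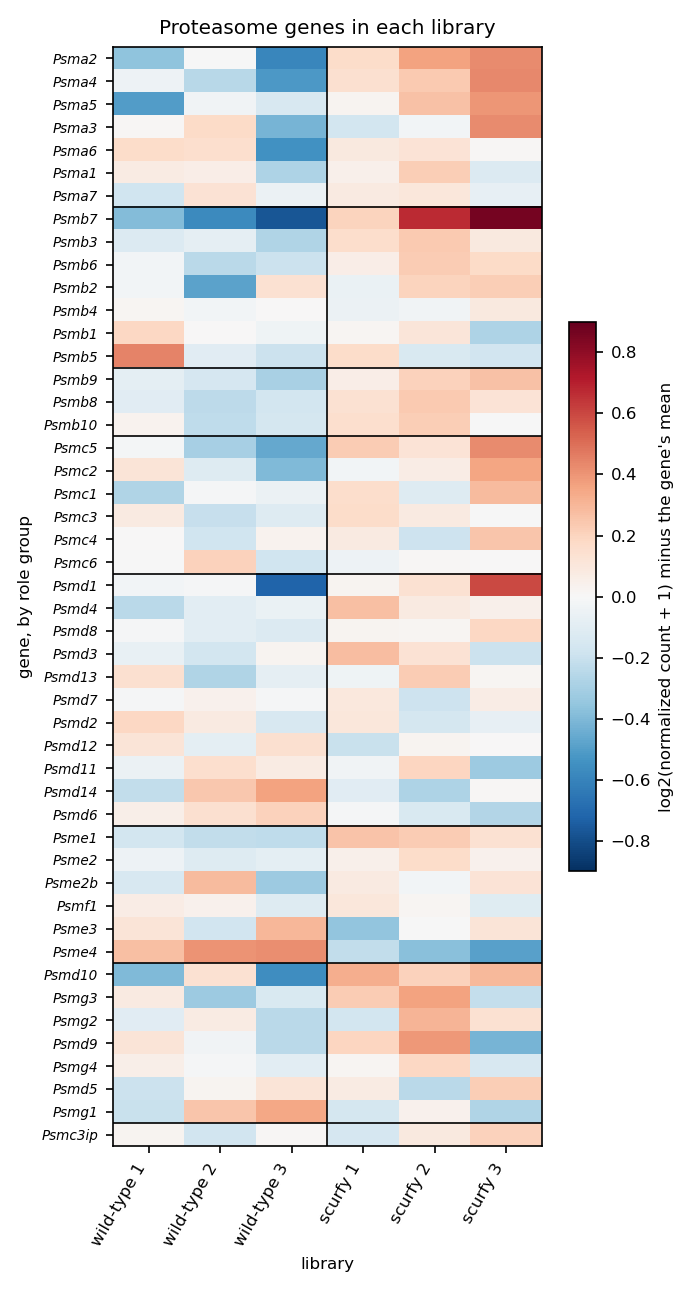
Deviation of log2(normalized count + 1) from the mean of each gene, for the 48 genes (rows, by role group) in the 6 libraries (columns). Blue cells of the alpha ring gather in wild-type library 3 and red ones in scurfy library 3, and Psmb7 and Psme4 split the groups in opposite directions.

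In the constitutive beta ring 1 of 7 genes rose and 6 did not pass. Psmb7 encodes the subunit with trypsin-like activity and was at 294.2, 407.6 and 466.9 normalized counts in scurfy against 195.4, 172.1 and 149.4 in wild-type libraries. Even the lowest scurfy library lay well above the highest wild-type one. The means were 390 ± 87.7 and 172 ± 23.0 (SD, n = 3 each), with a log2 fold change of 1.16 (SE 0.20, limma adjusted p = 0.00814). Psmb7 was the only one of the 4 calls to hold with each of the 6 libraries left out (adjusted p from 0.00615 to 0.0364), and it also held with a length trend removed (1.19, adjusted p = 0.0127).

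At 82.1 normalized counts per kilobase of exon Psmb7 had the lowest level per length of the beta ring, in which Psmb4 was highest at 2390. Reads of Psmb7 are uncertain in part: its exons share 405 bases with Nek6 on the other strand, strand use in counting was not given in the sources used here, and GENCODE M21 lists a processed pseudogene, Psmb7-ps2. Psmb6, the caspase-like subunit, and Psmb3, a structural one, had no overlap between groups at 0.31 (adjusted p = 0.102) and 0.32 (0.108). Psmb6 was at 2791, 3141 and 3018 in scurfy and 2627, 2260 and 2345 in wild-type libraries. Psmb5, the chymotrypsin-like subunit, was at -0.10 (95% interval -0.48 to 0.29), and Psmb4 at 0.00 (-0.20 to 0.21). Psmb2 was at 0.24 and Psmb1 at -0.10, both with overlapping groups.

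None of the 3 immunoproteasome genes passed, and all 3 had small positive values. All 3 had an unadjusted p under 0.05 (21.2% of all genes), and DESeq2 called 1 of them, Psmb8; edgeR and voom called 0. Psmb8 was at 8186, 8791 and 8122 normalized counts in scurfy and 6960, 6338 and 6642 in wild-type libraries, a log2 fold change of 0.33 (SE 0.10, limma adjusted p = 0.0714). Psmb9 was at 1300, 1443 and 1499 in scurfy and 1172, 1123 and 1018 in wild-type libraries, a log2 fold change of 0.36 (SE 0.11, adjusted p = 0.0859). For both genes the lowest scurfy library lay above the highest wild-type library. Psmb10 was at 3003, 3155 and 2699 against 2773, 2308 and 2424, which overlap (0.24, adjusted p = 0.222). The 95% intervals of the log2 fold changes were 0.12 to 0.54 for Psmb8, 0.12 to 0.60 for Psmb9 and 0.01 to 0.47 for Psmb10, unadjusted for the number of genes. Psmb9 shares 212 exon bases with Tap1 on the other strand, and Tap1 was at -0.17 (adjusted p = 0.346).

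**Figure D3:**
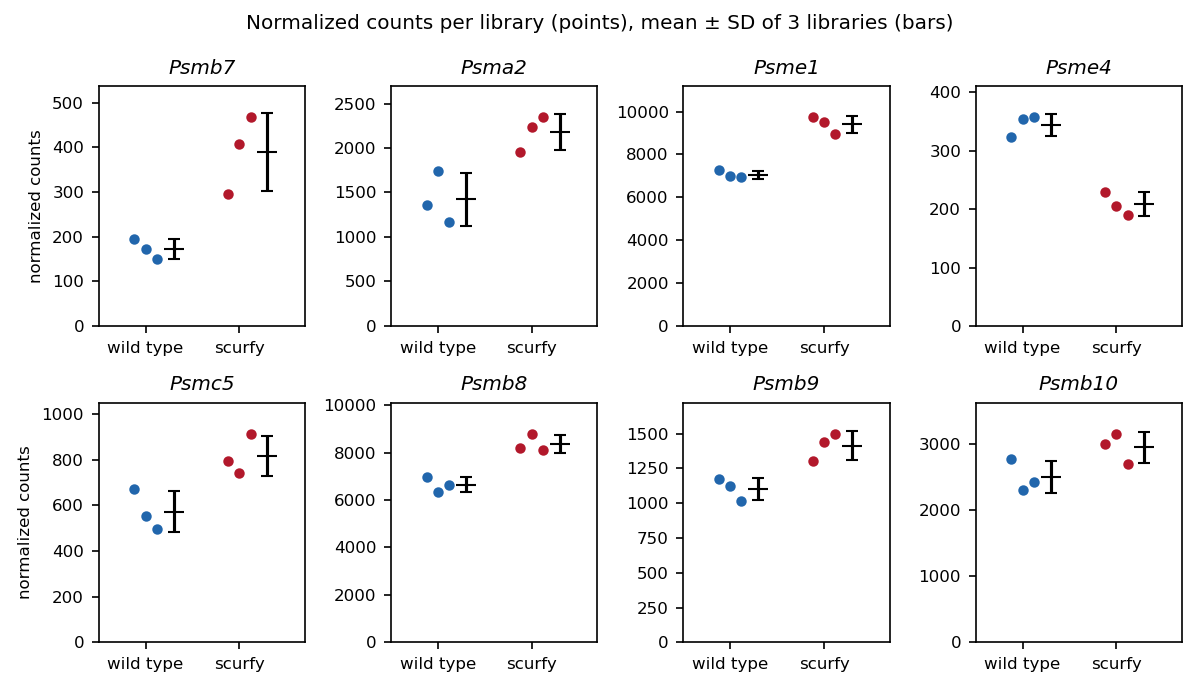
Normalized counts of 8 genes in each library (points, wild type in blue and scurfy in red) with the mean and SD of 3 libraries (black bars). The groups are apart for Psmb7, Psma2, Psme1 and Psme4, which were called, and also for Psmc5, Psmb8 and Psmb9, which were not; those of Psmb10 overlap.

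Each immunoproteasome subunit takes the place of 1 constitutive subunit, so their ratio was taken within each library, where scaling between libraries has no effect. Lengths of the transcripts enter these ratios, and only their differences between groups are read. Psmb10 over Psmb7 was 10.2, 7.74 and 5.78 in scurfy and 14.2, 13.4 and 16.2 in wild-type libraries. Every scurfy ratio was lower, by 0.91 on the log2 scale on average (exact permutation test, two-sided, p = 0.1, which is the lowest value possible with 3 libraries a group; adjusted p = 0.3 over the 3 ratios). Psmb8 over Psmb5 was 16.8, 22.2 and 21.0 against 11.7, 15.6 and 17.4, with overlapping groups (difference 0.43, exact permutation p = 0.2, adjusted 0.3; the difference was 0.27 without wild-type library 1). Psmb9 over Psmb6 was 0.466, 0.459 and 0.497 against 0.446, 0.497 and 0.434, a difference of 0.05 (exact permutation p = 0.6). The pairs thus differed in direction, and the low ratio of Psmb10 over Psmb7 in scurfy libraries went with the rise of Psmb7, while Psmb10 itself was at 0.24.

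**Figure D4:**
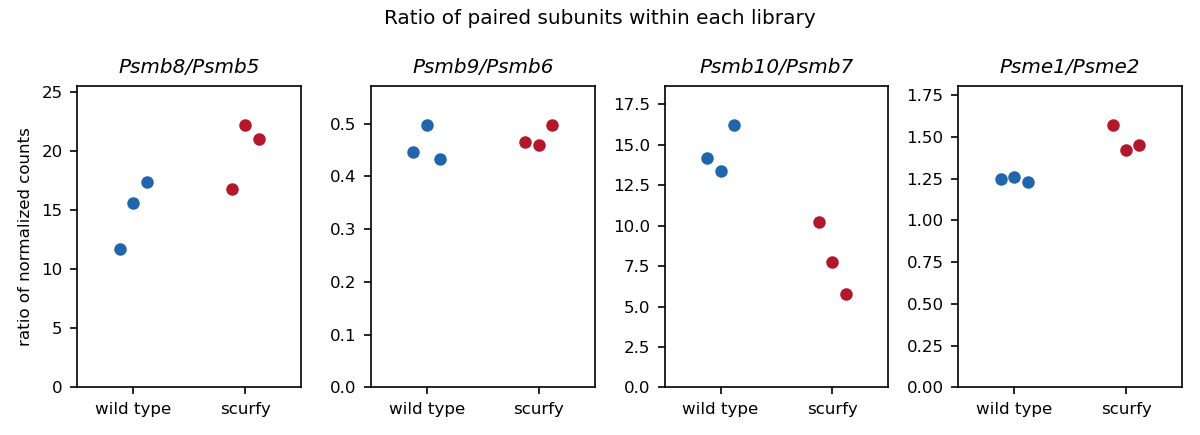
Ratio of the normalized counts of paired subunits in each library, for the 3 pairs of immunoproteasome over constitutive subunits and for the chains of PA28 (points, 3 libraries a group). Psmb10 over Psmb7 is at most 10.2 in scurfy and at least 13.4 in wild-type libraries, Psme1 over Psme2 is higher in every scurfy library, and the other pairs overlap.

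None of the 17 cap genes passed in either direction, and their median log2 fold change was 0.14. An unadjusted p was under 0.05 for 3 of them (17.6%, below the 21.2% of all genes), and both DESeq2 and voom called 1, Psmc5, against 0 by edgeR. Among the 6 ATPases, which unfold substrates, Psmc5 came closest, at 795.5, 739.6 and 912.6 normalized counts in scurfy and 671.3, 551.0 and 494.3 in wild-type libraries. Its groups did not overlap (log2 fold change 0.52, SE 0.14, limma adjusted p = 0.0542). Psmc2 was at 1439, 1533 and 1876 in scurfy and 1590, 1354 and 1111 in wild-type libraries, which overlap (0.26, adjusted p = 0.302; leaving out scurfy library 3 gave 0.15, and leaving out wild-type library 3 gave 0.13), and Psmc6 was lowest at -0.02. The ATPases as a group had a median of 0.19.

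The 11 other cap subunits were divided in sign, 5 positive and 6 negative, with a median of -0.01. Psmd1, the scaffold of the base, was at 753.2, 815.2 and 1118 in scurfy and 727.1, 736.6 and 448.2 in wild-type libraries (0.50, adjusted p = 0.15). Leaving out scurfy library 3 gave 0.33, and leaving out wild-type library 3 gave 0.27. Psmd4, a ubiquitin receptor, was at 1836, 1613 and 1575 in scurfy and 1287, 1426 and 1460 in wild-type libraries (0.27, adjusted p = 0.18). Psmd6, a lid subunit, went the other way with no overlap (-0.27, adjusted p = 0.236), and the deubiquitinase Psmd14 was at -0.25 with overlap. The remaining 7 ranged from -0.11 for Psmd11 and Psmd12 to 0.15 for Psmd8, whose groups did not overlap.

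The activators split. Psme1 was at 9733, 9525 and 8944 normalized counts in scurfy and 7275, 6975 and 6934 in wild-type libraries. The groups were well apart, with means of 9401 ± 409 and 7061 ± 186 (SD, n = 3 each) and a log2 fold change of 0.41 (SE 0.10, limma adjusted p = 0.0306). Psme2, the beta chain that joins Psme1 in one ring, was at 6205, 6715 and 6173 against 5809, 5534 and 5630, also without overlap but at 0.17 (95% interval -0.04 to 0.38, adjusted p = 0.337). The ratio of Psme1 to Psme2 was 1.57, 1.42 and 1.45 in scurfy and 1.25, 1.26 and 1.23 in wild-type libraries, an added description without a test. Reads of Psme2 and of its relative Psme2b (0.12) may be shared and are uncertain. The Psme1 call held only without scurfy library 3 (adjusted p = 0.0323). Leaving out scurfy library 1 or 2 gave 0.0961 and 0.112, and leaving out wild-type library 1, 2 or 3 gave 0.0609, 0.0983 and 0.0822. On library size alone it was also not called (0.28, adjusted p = 0.103).

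Psme4, which caps the core in place of the ATP-dependent regulator, was at 230.1, 206.2 and 190.3 in scurfy and 323.0, 354.3 and 357.5 in wild-type libraries. All 3 scurfy values lay below all 3 wild-type values. The means were 209 ± 20.0 and 345 ± 19.1 (SD, n = 3 each), with a log2 fold change of -0.72 (SE 0.17, limma adjusted p = 0.0266). Leaving out scurfy library 2 or 3 ended the call (adjusted p = 0.0744 and 0.0672), as did leaving out wild-type library 2 or 3 (0.0883 and 0.0875). Psme3, the nuclear PA28 gamma, was at -0.16 and Psmf1, an inhibitor of the core in the test tube, at 0.01, both with overlapping groups.

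None of the 7 assembly chaperones passed in limma, edgeR, DESeq2 or voom, and 1 had an unadjusted p under 0.05 (14.3%, below the 21.2% of all genes). Psmd10, or gankyrin, which helps to assemble the base, was at 496.5, 456.4 and 484.7 normalized counts in scurfy and 300.4, 435.5 and 268.6 in wild-type libraries (log2 fold change 0.55, limma adjusted p = 0.0933, and 0.0412 without wild-type library 2). Its groups did not overlap, with wild-type library 2 close to the scurfy values. Psmg1 and Psmg2, which act as a pair on the alpha ring, were at -0.26 and 0.18, and the pair Psmg3 and Psmg4 at 0.25 and 0.04. Psmg3 was at 572.8, 628.5 and 419.6 in scurfy and 517.1, 388.6 and 443.1 in wild-type libraries, which overlap. Its log2 fold change ranged from 0.13 with scurfy library 2 left out, over 0.15 with wild-type library 2 left out, to 0.43 with scurfy library 3 left out. Psmd9 was at 0.11 and Psmd5 at 0.04. Psmc3ip was low, at 76.29, 90.31 and 98.11 in scurfy and 86.4, 75.4 and 85.61 in wild-type libraries, which overlap (0.09, adjusted p = 0.877). For the 44 genes that did not pass, the 95% interval of the log2 fold change had a median half-width of 0.30 (from 0.20 to 0.56), and for all 44 it lay within 1 log2 unit of 0, so a change of 2-fold was outside it.

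Transcript length ran with the comparison. Over the table the median log2 fold change was 0.32 in the shortest of 10 length classes of genes and -0.11 in the longest. The median exonic length was 2804 bases for the members and 4075 over all genes. With a smooth length trend taken out of each library the members' median was 0.12 and that of all genes 0.02. Psmb7 and Psma2 kept their calls (Psma2 at 0.67, adjusted p = 0.0274), while Psme1 was at 0.37 (0.06) and Psme4, the longest member at 8382 bases, at -0.61 (0.0633). Exonic length here joins the exons of all annotated transcripts and is not the length of the transcript in these cells.

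**Figure D5:**
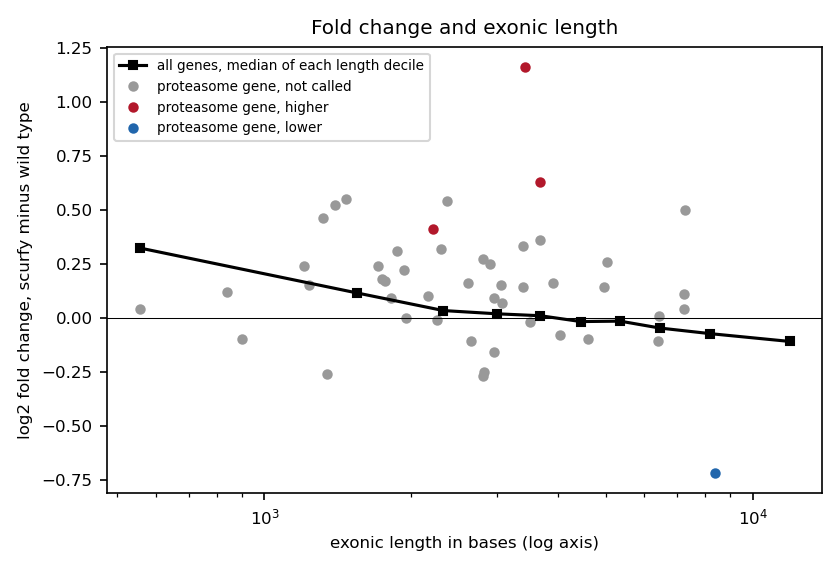
Log2 fold change of the 48 genes against exonic length (log axis), with the median of all genes in each of 10 length classes (black squares). Psmb7 and Psma2 lie well above the black line at 3421 and 3673 bases, and Psme4 lies below it at 8382 bases.

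An adjusted p under 0.05 in the authors' deposited table was held by 7 of the 48 genes (14.6%, against 7.69% of all genes). For these 7 genes the deposited adjusted p-values were equal to those of DESeq2 on recovered reads. Both called 891 genes over the table, so they are not separate results. Besides the 4 above, the authors' deposited table called Psmc5 (log2 fold change 0.52, adjusted p = 0.0203), Psmb8 (0.33, 0.0207) and Psma4 (0.54, 0.0317) higher.

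Of 10 other proteasome subunits and factors linked to the proteasome, 1 rose and 9 did not pass in limma. DESeq2 called 3 of them, edgeR and voom 1 each, and 6 had an unadjusted p under 0.05 (21.2% of all genes). Pomp, the chaperone needed to complete the beta rings, was at 1856, 2330 and 2701 normalized counts in scurfy and 1394, 1518 and 1292 in wild-type libraries. Its groups were apart (log2 fold change 0.70, SE 0.13, limma adjusted p = 0.0131), and the call ended only without wild-type library 3 (0.0561). AI314180 (-0.46, adjusted p = 0.0767), Akirin2 (-0.66, 0.117) and Zfand5 (-0.40, 0.136) were lower in every scurfy library without passing, and Shfm1, a small lid subunit, was higher in each (0.48, 0.0573). Of the 10 genes, 2 were higher and 3 lower in every scurfy library, against 13.4% and 13.7% of all genes. Of 11 shuttle factors and bound deubiquitinases, DESeq2 called 3, voom 2 and edgeR 1. An unadjusted p was under 0.05 for 5 of them, against 21.2% of all genes. In limma 1 passed, Uchl5, a deubiquitinase bound to the cap, which fell by 0.59 on the log2 scale (adjusted p = 0.0372). It kept its call only without wild-type library 1 (0.0423), with 0.091, 0.0549 and 0.089 without scurfy libraries 1 to 3 and 0.112 and 0.13 without wild-type libraries 2 and 3. None of 4 ubiquitin genes passed in limma, edgeR, DESeq2 or voom (1 with an unadjusted p under 0.05, as for 21.2% of all genes; Rps27a at 0.70, limma adjusted p = 0.124, and 0.40 without wild-type library 3). Of 10 genes of p97, the segregase that extracts tagged proteins, and its cofactors, 0 passed in limma, edgeR and voom and 1 in DESeq2. An unadjusted p was under 0.05 for 2 of them, against 21.2% of all genes. Ngly1 was at -0.51 (limma adjusted p = 0.0697).

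None of 11 transcription factors linked to proteasome genes passed in limma. The MHC class I activator Nlrc5 was closest at 0.40 (limma adjusted p = 0.0821). Nlrc5 passed once the length trend was removed (0.51, limma adjusted p = 0.039). It was the 1 gene with an unadjusted p under 0.05, against 21.2% of all genes, and the 1 called by DESeq2, against 0 by edgeR and voom. Of 16 genes that supply or bind peptides for MHC class I, 1 fell and 15 did not pass in limma. DESeq2 called 2, edgeR and voom 1 each, and 3 had an unadjusted p under 0.05 (21.2% of all genes). B2m, the light chain shared by class I molecules, was higher in every scurfy library without passing (0.67, limma adjusted p = 0.0567). With the length trend removed B2m was at 0.42 (limma adjusted p = 0.184). Tap1 (-0.17), Erap1 (-0.30), Pdia3 (-0.23) and H2-D1 (-0.12) were lower in every scurfy library without passing. Of the 16 genes, 1 was higher and 5, with H2-K1, were lower in every scurfy library, against 13.4% and 13.7% of all genes. H2-K1, a class I heavy chain, was at 49000, 46499 and 42763 in scurfy and 71502, 67050 and 72495 in wild-type libraries. The groups did not overlap (-0.61, SE 0.11, limma adjusted p = 0.0117, and 0.0529 without scurfy library 2), and reads of related class I genes may be shared.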

How the data were processed

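Groups and replicate numbers came from sample titles. The deposited values are a signal, which the values show to be read counts scaled by the authors with 1 size factor for each library; 100% of them were whole reads within 0.01 read, which gave reads and depth (3 reads are 1.45 to 3.99 normalized counts, counting error only). Per the submitters' processing notes, Trim Galore 0.4.4, STAR 2.6 and featureCounts were used with build NCBIM37, with edgeR and DESeq2 named without a role. The deposited table, per the file headers, further holds the authors' log2 fold change, a test score, a p-value and an adjusted p. The filter on low genes before deposit was not given in the sources used here.

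limma 3.58.1 (R 4.3.3) was fitted to log2(value + 1) over the 6 libraries, with a variance trend and robust moderation (10.6 prior and 4 residual degrees of freedom). The p-values were adjusted by Benjamini-Hochberg over 11581 genes (threshold 0.05). On this scale the size of a change of a low gene is uncertain. H2-Aa was at -3.97, against -3.39 in edgeR and -3.40 in DESeq2. The limma fit was tested on simulated data. Within groups, paired libraries differed by more than sampling noise (6.79 to 32.4 times the sampling variance). Lengths and chromosomes came from GENCODE M21 (11571 IDs matched). Alternatives used 2 pseudocounts, a filter, 2 scalings, edgeR 4.0.16, DESeq2 1.42.0, voom, a length trend, a replicate block and each library left out. Members, role groups and lists were chosen with earlier results of these data known. Values are given for each called gene and the 2 genes of smallest p in each role group, and for up to 3 called genes, or the first by p, in each list; Psmb10, Psme2 and Psmb5 as partners in pairs, and genes ranking just behind, were added after their values were seen. Some items are not reported here.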

Additional observations from a re-analysis of the deposited data

How the results depend on the processing

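Pseudocounts of 0.5 and 8, a mean of at least 50, TMM factors, edgeR and voom left 3 or 4 members higher and 1 lower, Psmc5 being the gene added. DESeq2 on recovered reads called 6 members higher, the same as the authors' deposited values, with 415 genes higher and 476 lower over the table. With the length trend removed no member was lower, with 152 genes higher and 165 lower over the table. On library size alone 761 genes were lower over the table, the median log2 fold change of the members was 0.01, and Psme1 was at 0.28 (adjusted p = 0.103). Leaving out 1 library gave 76 to 180 genes higher and 37 to 223 lower over the table, 1 to 3 members higher and 0 to 1 lower; the members' median ranged from 0.12 to 0.18. The cause was not tested; fewer libraries entered those fits. Psmb5 ranged from -0.22 to 0.10 over libraries left out, and Psmc3ip was at -0.04 on library size alone and -0.01 without the length trend, neither ever called. Of the 30 other members, 15 changed sign under some alternative, none with a log2 fold change over 0.16 in size, and none was called.

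Same-numbered libraries did not deviate together (correlations of -0.07 to 0.01, none best with its own number). The replicate block gave 176 genes higher and 196 lower, 2 members higher and 1 lower, Psme1 no longer passing (adjusted p = 0.069); Uchl5 reached 0.0539.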
